A study of Mus musculus with 6 samples.

Results

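The expression of 10 immediate early response genes, Fos, Fosb, Jun, Junb, Egr1, Atf3, Ier2, Ier3, Dusp1 and Zfp36, was examined in FOXO3 KO and WT mouse macrophages. The genes were taken by symbol and not by their values, and they make up 10 of the 54648 gene symbols in the count table. All 10 were among the 15608 genes that passed the filter on low counts, with the lowest count, 93, for Fosb in WT 2. The samples were peritoneal cells of C57BL/6 mice, 6 to 8 weeks old and fed standard chow, and comprised 3 libraries from WT mice and 3 from mice homozygous for the FOXO3 KO allele, for which the sources name no Cre driver. Mice of both sexes were used in the study, and the labels do not assign a sex to a library. All mice had received thioglycollate in the abdomen, an irritant that recruits monocytes which mature into macrophages, and the cells were pelleted in the cold without a sort. Reads were paired and 76 bp long. The comparison asks whether loss of FOXO3, a forkhead transcription factor, alters expression of these genes in macrophages.

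Immediate early genes are transcribed within minutes of a stimulus, without a need for new protein, by factors such as SRF, the ETS partners of SRF and CREB that are already present in the cell and are activated by kinases. Their products include the AP-1 subunits, which drive later genes, and proteins that switch the response off again. In macrophages they are known to respond to microbial products and cytokines, and also to the harvest and handling of the cells.

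Library totals lay between 28083393 and 36424117 estimated counts. CPM are counts divided by the effective library size, which is the total over tested genes times a TMM factor between 0.936 and 1.10. Foxo3 was at 117, 107 and 73.1 CPM in WT 1, WT 2 and WT 3, at 4.71 CPM in FOXO3 KO 1 and at 4.29 CPM in FOXO3 KO 3, but at 104 CPM in the library labelled FOXO3 KO 2. This library stands at the WT level of the targeted gene, so the comparison of each list is given with all 6 libraries as labelled and again without it. Xist, the RNA of the inactive X chromosome, was at 871 CPM in WT 3 and 1130 CPM in FOXO3 KO 3, and at 0.0730 to 0.177 CPM in the other 4 libraries. In WT 3 the Y-linked gene Ddx3y was nevertheless at 23.7 CPM, against 2.37 CPM in FOXO3 KO 3 and 98.7 to 123 CPM in the libraries without Xist. WT 3 thus held both Xist and Y-linked RNA, a grouping by Xist is not a clean grouping by sex, and whether this library holds RNA of more than 1 mouse was not tested. WT 3 also had the highest summed level of 7 B cell markers, 5408 CPM against 345 to 1416 CPM in the other libraries. The labelled cell type was checked with 12 macrophage markers, all of which were detected and whose sum was 14125 CPM in WT 3 and 16025 to 19297 CPM elsewhere.

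None of the 10 immediate early genes differed between FOXO3 KO and WT macrophages in the quasi-likelihood test of edgeR at an FDR under 0.05 (Benjamini-Hochberg, all tested genes) and a fold change over 1.5. This test called 0 of the 15608 genes, 0% of the background, and without FOXO3 KO 2 it called 0 of 16217 genes, again 0%. Foxo3, the targeted gene, was thus not called either, with an adjusted p of 0.859 by edgeR with 6 libraries. Without FOXO3 KO 2 its adjusted p was 0.105, at a log2 fold change of -4.46 (SE 0.29). An absence of calls by this test therefore does not show that a gene is unchanged. Adjusted p-values of the 10 genes were 0.839 to 0.956 with 6 libraries, and 0.994 to 0.996 without FOXO3 KO 2. At an unadjusted p under 0.05, 1 of the 10 genes (Ier3) was reached, against 5.68% of all genes, and without FOXO3 KO 2 none was, against 4.30%. DESeq2 called 0 of the 10 genes with 6 libraries, where its background was 0.794%, and 0 without FOXO3 KO 2, where it was 0.666%.

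No immediate early gene had every FOXO3 KO library above every WT library, while 7.00% of all genes did, and the same held without FOXO3 KO 2, where 11.0% of all genes did. The fitted log2 fold change was above 0 for 9 of the 10 genes, against 48.8% of all genes tested, and without FOXO3 KO 2 for 9 of the 10 against 47.6%. The median log2 fold change over the 10 genes was 0.21 beside -0.0073 for all genes tested, and without FOXO3 KO 2 it was 0.22 beside -0.0161. Leaving out each library in turn moved the median of the 10 genes between 0.04 (without WT 3) and 0.39 (without WT 1). Without WT 3 and FOXO3 KO 2 it was 0.05, so its size leaned on WT 3. Summed over the 10 genes, the level was 975 ± 356 CPM in WT (SD, n = 3) and 1131 ± 181 CPM in FOXO3 KO macrophages (SD, n = 3). The WT sums were 1165, 1195 and 564 CPM, and the FOXO3 KO sums 1297, 1157 and 938 CPM, so that the groups overlapped and WT 3 lay below all other libraries.

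**Figure D1:**
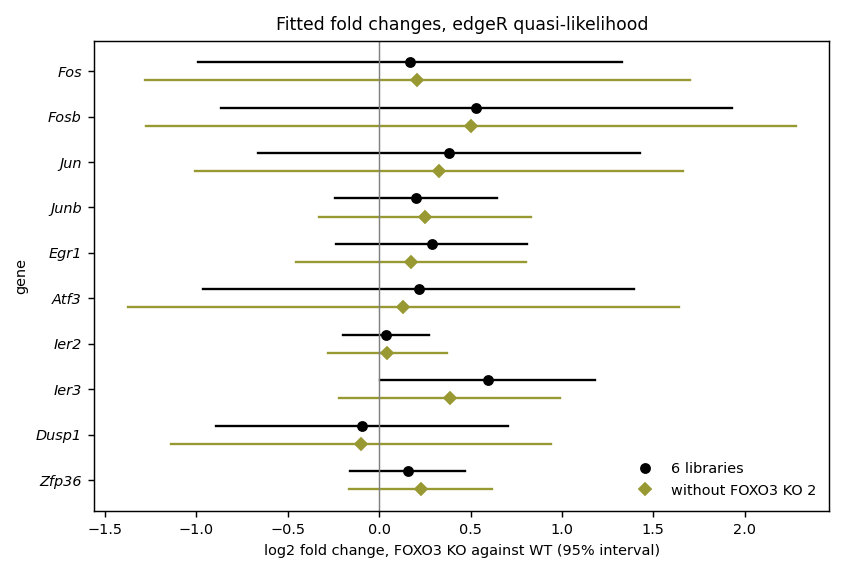
Fitted log2 fold change of each immediate early gene, FOXO3 KO against WT, on the x axis, with 95% intervals from edgeR's quasi-likelihood fit (circles, 6 libraries; diamonds, without FOXO3 KO 2). The intervals span 0 except for Ier3 with 6 libraries, where the lower end is 0.006.

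Fos encodes the AP-1 subunit c-Fos, which binds DNA as a partner of Jun proteins. It was at 153, 126 and 45.4 CPM in WT 1, 2 and 3 and at 169, 115 and 80.9 CPM in FOXO3 KO 1, 2 and 3. WT 3 was the lowest library and FOXO3 KO 3 the next lowest, and the groups overlapped. The log2 fold change was 0.17 (SE 0.48, 95% interval -0.99 to 1.33), within the spread between libraries (exact permutation test over the 6 libraries, two-sided, p = 0.7). With 3 libraries against 3, as with 3 against 2, this permutation test cannot give a p below 0.1, and without FOXO3 KO 2 it gave 0.3 to 0.9 over the 10 genes. The sign of the Fos difference depended on single libraries, as it was -0.19 without WT 3 and -0.15 without FOXO3 KO 1.

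Fosb, which encodes a close relative of c-Fos, had the lowest level of the 10 genes per kb of exon. It was at 8.50, 3.28 and 3.35 CPM in WT and at 11.2, 7.63 and 3.15 CPM in FOXO3 KO macrophages. FOXO3 KO 1 and WT 1 were high and the third libraries of both groups were low together with WT 2, so the groups overlapped over nearly their whole range. Its log2 fold change of 0.53 had the widest interval of the 10 genes, -0.87 to 1.93.

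Jun encodes c-Jun, the other partner of the classical AP-1 dimer. It was at 213, 256 and 74.4 CPM in WT and at 254, 254 and 201 CPM in FOXO3 KO macrophages. WT 3 stood alone at the bottom, and the other 5 libraries differed from each other by at most 1.27-fold. The mean was 181 ± 94.9 CPM in WT and 236 ± 30.3 CPM in FOXO3 KO (SD, n = 3), with a log2 fold change of 0.38 (SE 0.43, exact permutation p = 0.7), and it was -0.04 when WT 3 and FOXO3 KO 2 were both left out.

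Junb encodes a Jun protein that also forms AP-1 dimers and can hold back c-Jun activity. It was at 171, 176 and 120.1 CPM in WT and at 205, 167 and 166 CPM in FOXO3 KO macrophages. WT 3 was again lowest, though by less than for Jun, and FOXO3 KO 1 was highest. The log2 fold change was 0.20 (SE 0.18, exact permutation p = 0.6).

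Atf3 encodes a CREB/ATF family repressor that is induced by stress and by Toll-like receptor signalling in macrophages. It was at 326, 378 and 96.3 CPM in WT and at 344, 344 and 241 CPM in FOXO3 KO macrophages. WT 3 and FOXO3 KO 3 were the lowest libraries of their groups, and the highest and lowest of the 6 differed 3.93-fold, more than for any other of the 10 genes. The log2 fold change was 0.22 (SE 0.49, exact permutation p = 0.8), and it turned to -0.17 without WT 3.

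Egr1 encodes a zinc finger transcription factor of the early response. It was at 14.1, 9.17 and 13.98 CPM in WT and at 14.99, 17.5 and 13.01 CPM in FOXO3 KO macrophages. WT 2 was low and FOXO3 KO 2 high, and WT 3 lay beside WT 1, within the range of the FOXO3 KO libraries. The log2 fold change was 0.29 (SE 0.22, exact permutation p = 0.4).

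Ier2 encodes a nuclear early response protein and was the steadiest of the 10 genes. It was at 44.4, 50.1 and 42.6 CPM in WT and at 48.6, 46.3 and 45.7 CPM in FOXO3 KO macrophages. All 6 libraries lay within 1.18-fold of each other, and the log2 fold change was 0.04 with the narrowest interval of the 10 genes, -0.20 to 0.27.

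Ier3 encodes a stress-inducible regulator of cell survival that is a known NF-kappa B target. It was at 10.7, 8.36 and 11.8 CPM in WT and at 15.4, 19.8 and 11.5 CPM in FOXO3 KO macrophages. FOXO3 KO 2 and FOXO3 KO 1 were the highest libraries, but FOXO3 KO 3 lay just below WT 3, so the groups overlapped. The mean was 10.3 ± 1.76 CPM in WT and 15.6 ± 4.15 CPM in FOXO3 KO (SD, n = 3). The log2 fold change of 0.59 (SE 0.24) was the largest of the 10 genes, with an unadjusted p of 0.0483 and an adjusted p of 0.839 by edgeR's quasi-likelihood test (exact permutation p = 0.2). Its highest value came from the library labelled FOXO3 KO 2, in which Foxo3 was at the WT level, and without that library the log2 fold change was 0.39 (SE 0.24) with an unadjusted p of 0.164 and an adjusted p of 0.994.

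Dusp1 encodes a phosphatase that inactivates p38, JNK and ERK kinases and so dampens the signal behind the early response. It was at 90.0, 72.5 and 41.7 CPM in WT and at 81.6, 64.3 and 45.5 CPM in FOXO3 KO macrophages. WT 1 and FOXO3 KO 1 were the highest libraries, WT 3 and FOXO3 KO 3 the lowest, and the groups overlapped almost fully. It was the only one of the 10 genes with a fitted change below 0, with a log2 fold change of -0.09 (SE 0.33), and this became 0.16 without WT 1 and 0.10 without FOXO3 KO 3.

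Zfp36 encodes tristetraprolin (TTP), which binds AU-rich elements in cytokine mRNAs and speeds up their decay. It was at 134, 115 and 114 CPM in WT and at 153, 121 and 130.3 CPM in FOXO3 KO macrophages. Only FOXO3 KO 1 lay above all WT libraries, and all 6 lay within 1.34-fold of each other. The log2 fold change was 0.16 (SE 0.13, exact permutation p = 0.3).

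**Figure D2:**
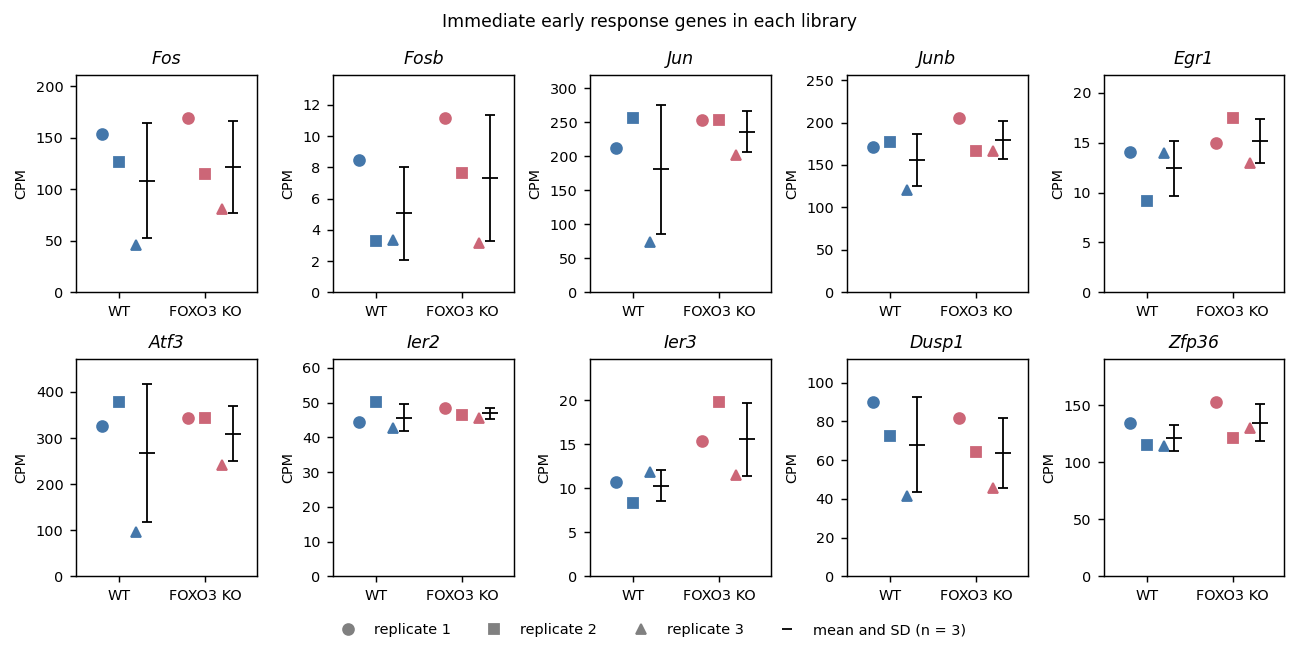
Level of each immediate early gene (y axis, CPM, linear from 0) in the 3 WT and 3 FOXO3 KO libraries, with the replicate given by the marker and the mean and SD (n = 3) drawn beside the points. WT and FOXO3 KO points overlap for all 10 genes, and the third WT library (triangle) is low for Fos, Jun and Atf3.

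The highest and the lowest of the 6 libraries differed by a median of 2.26-fold over the 10 genes, beside 1.74-fold over all genes tested, and they did so unequally from gene to gene. WT 3 was the lowest of the 6 libraries for 7 of the 10 genes (Fos, Jun, Junb, Atf3, Ier2, Dusp1 and Zfp36), beside 37.5% of all genes tested. Against the mean of WT 1 and WT 2, it held 27.3% of Atf3, 31.8% of Jun and 32.6% of Fos, and so less than 50% for 3 of the 10 genes, beside 10.5% of all genes. For Dusp1 it held 51.3%, for Fosb 56.9% and for Junb 69.2%, whereas for Ier2 (90.0%) and Zfp36 (91.5%) it was near the other WT libraries. For Egr1 (120.1%) and Ier3 (123%) WT 3 lay above their mean. For Jun and Atf3, WT 3 was below 50% of the lowest other library, as was the case for 5.05% of all genes.

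WT 3 and FOXO3 KO 3, the libraries with Xist, were the 2 lowest for 5 of the 10 genes (Fos, Jun, Junb, Atf3 and Dusp1), beside 18.7% of all genes. Within this pair, FOXO3 KO 3 exceeded WT 3 by 2.70-fold for Jun, 2.50-fold for Atf3, 1.78-fold for Fos and 1.38-fold for Junb, with 1 library in each group. Over the 10 genes the median log2 difference of FOXO3 KO 3 from WT 3 was 0.16, beside 0.0062 for all genes tested. Among the libraries without Xist, the median log2 difference of FOXO3 KO 1 and 2 from WT 1 and 2 was 0.11, beside -0.0091 for all genes tested. There Jun differed by 0.12, Fos by 0.01 and Atf3 by -0.03, so these genes were nearly level between the genotypes in the libraries without Xist, and FOXO3 KO 1 alone gave log2 differences of 0.12, 0.28 and -0.03. A term for the interaction of genotype and Xist, fitted across all genes in edgeR, was at an unadjusted p under 0.05 for 3 of the 10 genes (Jun, Atf3 and Ier3), beside 20.9% of all genes. At an FDR under 0.05 it reached 0 of the 10 genes, beside 0% of all genes, with adjusted p-values by edgeR of 0.0704 for Jun, 0.0678 for Atf3 and 0.222 for Ier3. Fitted without FOXO3 KO 2, which was added after seeing the data and leaves 1 residual degree of freedom per gene, the interaction was at an unadjusted p under 0.05 for 2 of the 10 genes (Jun and Atf3), beside 17.4% of all genes. These 2 also passed an FDR under 0.05, beside 3.53% of all genes, with adjusted p-values by edgeR of 0.0291 for Jun and 0.0279 for Atf3. The difference of the FOXO3 KO effect with Xist from that without was 1.32 on the log2 scale for Jun and 1.35 for Atf3 in 6 libraries, and 1.33 and 1.36 without FOXO3 KO 2. As the interaction rests on 1 WT library with Xist, WT 3, and 1 such FOXO3 KO library, sex and any other feature of these libraries cannot be told apart.

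**Figure D3:**
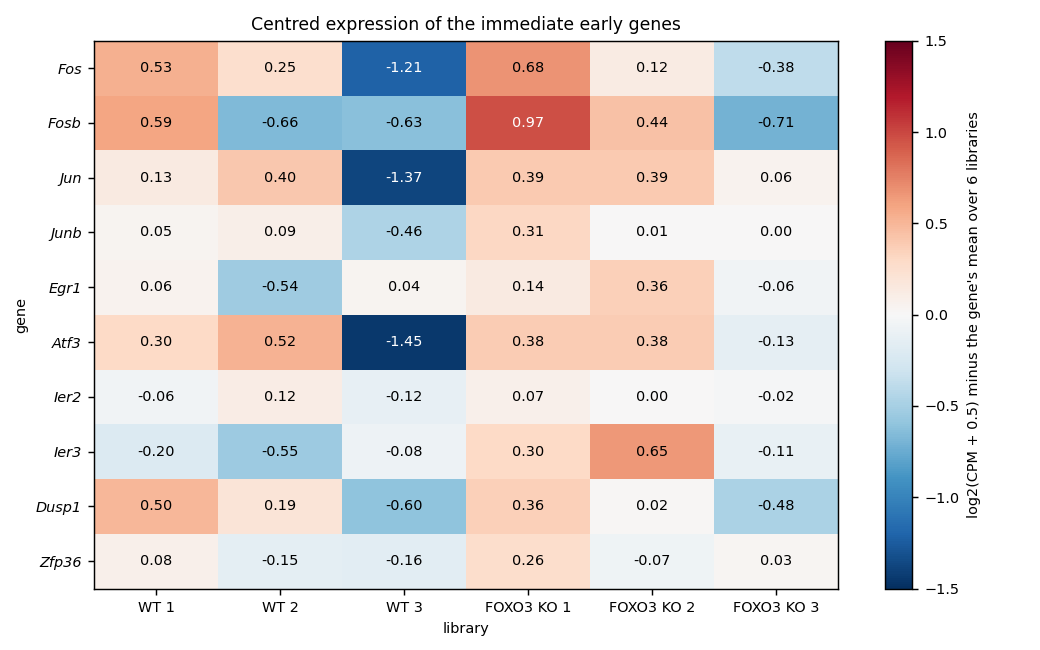
log2(CPM + 0.5) of each immediate early gene minus its mean over the 6 libraries, by gene (rows) and library (columns), in blue below and red above the mean. WT 3 is at -1.45 for Atf3, -1.37 for Jun and -1.21 for Fos, and near 0 for Egr1, Ier2 and Ier3.

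The makeup of the 10 genes was also unlike that of the other libraries in WT 3. Atf3 took 17.1% of their summed CPM there and 25.7% to 31.6% in the other 5 libraries, and Jun 13.2% against 18.3% to 21.9%. Zfp36 took 20.2% in WT 3 against 9.61% to 13.9%, and Junb 21.3% against 14.4% to 17.7%. The ratio of Jun to Junb was 0.620 in WT 3 and 1.21 to 1.52 in the other libraries. Fos over Junb was 0.378 in WT 3 and 0.487 in FOXO3 KO 3, below the range of 0.690 to 0.896 in the libraries without Xist.

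Other cell types moved with these libraries. The summed B cell markers were 1416, 759 and 5408 CPM in WT and 345, 644 and 1266 CPM in FOXO3 KO, with each of the 7 markers detected in each library. Mast cell markers (8 of 8 detected) ranged from 131 to 798 CPM in the WT group and from 103 to 301 CPM in the FOXO3 KO group, and T cell markers (8 of 8) from 34.3 to 142 CPM and from 23.6 to 58.6 CPM. These were highest in WT 3. Neutrophil markers ranged from 137 to 225 CPM in WT and 231 to 503 CPM in FOXO3 KO, with Ly6g and Elane at or near 0. Dendritic cell markers ranged from 48.6 to 172 CPM in WT and from 61.3 to 105 CPM in FOXO3 KO, eosinophil markers from 65.4 to 92.8 CPM and from 37.4 to 95.04 CPM, red blood cell markers from 9.70 to 27.0 CPM and from 9.23 to 182 CPM, and mesothelial and fibroblast markers from 53.1 to 81.9 CPM and from 104 to 517 CPM. In bulk libraries fewer cells of a type and less RNA per cell cannot be told apart, and the part of these cells in the levels of the immediate early genes was not tested. Per 100 counts of the 12 macrophage markers, the summed immediate early genes were lowest in WT 3, at 3.99, beside 5.85 to 7.85 in the other libraries. Most of that marker sum was Lyz2, at 7746 CPM in WT 3, so the ratio rests largely on that gene. Ratios to single markers were not compared. Macrophage markers themselves were uneven in WT 3, where Cd68 was at 525 CPM and Mrc1 at 193 CPM against at least 990 CPM and 464 CPM elsewhere, while Adgre1, at 920 CPM, was highest there.

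Levels were compared between genes per kb of exon, as the union of annotated exons (GENCODE M21 on GRCm38). Atf3 was the most expressed, at a mean over the 6 libraries of 134 CPM per kb, above 97.7% of coding genes tested. Junb (72.8), Jun (65.5), Fos (48.9), Zfp36 (36.9), Ier2 (30.4), Dusp1 (19.9) and Ier3 (11.4 CPM per kb) followed, and Egr1 (3.07) and Fosb (0.990 CPM per kb) were lowest, the last above only 19.9% of coding genes. The ranges over libraries lay apart between Ier2 and Dusp1, between Ier3 and Egr1 and between Egr1 and Fosb. Jun exceeded Fos, Zfp36 exceeded Ier2 and Dusp1 exceeded Ier3 in all 6 libraries although their ranges overlapped, whereas Atf3 exceeded Junb in 5 libraries, and Junb exceeded Jun, and Fos exceeded Zfp36, in 4. Divided by the length of the main coding transcript in place of the exon union, Dusp1 (33.1 CPM per kb) lay above Ier2 (30.4 CPM per kb).

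Most of the 10 genes were compact. The median span of the 10 was 3852.5 bp beside 23894 bp for the 12950 coding genes tested, and the median number of exons of the main transcript was 2 beside 9. A span under 10000 bp was found for 8 of the 10 genes, beside 24.0% of coding genes, the exceptions being Atf3 and Dusp1, whose annotation includes distant upstream exons. AU-rich elements in the 3′ UTR, which mark an mRNA for rapid decay, were counted by the pentamer ATTTA. Its median density was 3.56 per kb of 3′ UTR for the 10 genes and 1.29 for the 12584 coding genes with a 3′ UTR of at least 50 bases, and it was highest in Ier3 (8.16 per kb) and 0 in Ier2. The longer TTP recognition element TTATTTATT occurred in 3 of the 10 genes, beside 7.60% of coding genes. These are shown because they include Zfp36, which encodes TTP itself, and are taken from GENCODE M21 transcripts with the element in capitals. They lie in the 3′ UTRs of Fos (GRCm38, chr12:85477103-85477131, plus strand), Zfp36 (chr7:28376951-28376979, minus strand) and Dusp1 (chr17:26506159-26506187, minus strand).
Fos 3′ UTR: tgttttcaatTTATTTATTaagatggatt
Zfp36 3′ UTR: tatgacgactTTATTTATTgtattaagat
Dusp1 3′ UTR: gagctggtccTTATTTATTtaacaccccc
Among these 3 genes, the CPM of Zfp36 varied 1.34-fold between libraries, that of Dusp1 2.16-fold and that of Fos 3.72-fold.

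Promoter sequences from RefSeq (GRCm38.p6) matched 8 of the 10 genes, all but Egr1 and Ier2. The promoters of Fos, Jun and Atf3 are shown because these genes were low together in WT 3, and that of Junb because it holds a forkhead site, the kind of sequence FOXO proteins recognise. Each is the 250 bases before the listed start site, 5′ to 3′ on the strand of the gene, for Fos chr12:85473640-85473889 (plus strand), Jun chr4:95052223-95052472, Atf3 chr1:191183334-191183583 and Junb chr8:84978749-84978998 (minus strand). Capitals mark the CRE core TGACGT in either orientation, TATA boxes (TATAAA), forkhead sites (TGTTTAC) and AP-1 sites (TGANTCA).
Fos promoter: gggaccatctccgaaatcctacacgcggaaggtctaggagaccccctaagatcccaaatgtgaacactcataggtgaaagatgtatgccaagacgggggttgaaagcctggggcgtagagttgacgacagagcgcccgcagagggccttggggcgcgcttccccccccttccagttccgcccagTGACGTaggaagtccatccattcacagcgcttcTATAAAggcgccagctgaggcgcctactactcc
Jun promoter: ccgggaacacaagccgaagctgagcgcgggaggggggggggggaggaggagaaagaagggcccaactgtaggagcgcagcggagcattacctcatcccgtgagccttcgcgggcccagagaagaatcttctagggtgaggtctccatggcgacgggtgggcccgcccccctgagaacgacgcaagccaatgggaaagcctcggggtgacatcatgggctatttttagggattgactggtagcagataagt
Atf3 promoter: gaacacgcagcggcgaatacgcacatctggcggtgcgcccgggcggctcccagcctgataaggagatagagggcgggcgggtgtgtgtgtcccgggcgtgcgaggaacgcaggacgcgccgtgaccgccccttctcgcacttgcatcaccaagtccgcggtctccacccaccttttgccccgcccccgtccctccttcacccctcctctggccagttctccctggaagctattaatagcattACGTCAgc
Junb promoter: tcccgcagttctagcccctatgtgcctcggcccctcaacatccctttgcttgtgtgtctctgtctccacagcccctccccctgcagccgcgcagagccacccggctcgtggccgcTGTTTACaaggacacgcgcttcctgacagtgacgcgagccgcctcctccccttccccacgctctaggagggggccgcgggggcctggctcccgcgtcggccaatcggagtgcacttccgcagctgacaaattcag
Within windows of 300 bases (250 before to 50 after the start) and on both strands, TGACGT, the core of the element bound by CREB and ATF proteins, was present in Fos (first base at -66), Atf3 (at -8, on the minus strand) and Dusp1, thus in 3 of 8 genes beside 7.65% of 27025 promoters. Its full palindrome TGACGTCA, which contains the core, was present in Dusp1 alone (at -143), beside 1.88% of promoters. The forkhead letters TGTTTAC were present in Junb alone (at -135), thus in 1 of 8 genes, beside 3.55% of promoters, and whether FOXO3 binds there was not tested. TGANTCA was present in 0 of the 8 windows, beside 7.93% of promoters. TATAAA was present in 2, beside 14.2%, in Fos at -33 and in Junb at 1, which is past the listed start site and the bases shown. The GENCODE M21 annotation of Junb begins further downstream, at chr8:84978718, so positions in Junb depend on the start site used. The EGR site GCGNGGGCG was present in Fosb and Zfp36, beside 5.55%, the kappa B site in Fosb, Fos and Ier3, beside 4.35%, and the CArG box, the site of SRF, in Zfp36, beside 1.57%. The window of Jun held no exact match to any of the 8 motifs, though its tgacatca differs from TGACGTCA by 1 base. Variant forms and sites outside the windows were not searched, so an absent match does not show that a gene lacks such a site.

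Other immediate early genes were described from a list of 36, all of which passed the filter. By edgeR's quasi-likelihood test 0 were called. A log2 fold change above 0 was fitted for 24, beside 48.8% of all genes, and below 0 for 12. The median over the 36 was 0.16 (0.11 without FOXO3 KO 2). At an unadjusted p under 0.05, 4 were higher (Nr4a3, Cyr61, Trib1 and Cebpd) and none lower, beside 5.68% of all genes. Without FOXO3 KO 2 there were also 4 higher and none lower, beside 4.30%, of which Nr4a3 and Cebpd were shared, Nr4a1 and Dusp5 were added, and Cyr61 and Trib1 dropped out. Nr4a3, an orphan nuclear receptor of the early response, was at 1.97, 1.62 and 1.45 CPM in WT and at 4.68, 3.43 and 6.54 CPM in FOXO3 KO macrophages. Every FOXO3 KO library lay above every WT library, and the log2 fold change was 1.54 (SE 0.31, unadjusted p = 0.0023, adjusted p = 0.714 by edgeR). DESeq2 called Nr4a3 alone of this list, with an adjusted p of 0.00415 in all 6 libraries and 0.000221 without FOXO3 KO 2. Of all genes, DESeq2 called 0.794% and 0.666% in these fits. With 6 libraries the largest fitted change was that of Cyr61, a matricellular protein gene, with a log2 fold change of 1.90 (SE 0.67). It was at 0.388, 0.247 and 0.0559 CPM in WT and 0.461, 1.13 and 1.02 CPM in FOXO3 KO. Its counts were 14, 7 and 2 in WT and 13, 31 and 34 in FOXO3 KO, so Cyr61 was near the floor. Its passing of the filter leaned on the group in which it was higher, and its rank is not read further. Its highest value came from FOXO3 KO 2, and without that library its log2 fold change was 1.68 (SE 0.78, unadjusted p = 0.0828 by edgeR), below the 1.74 (SE 0.30) of Nr4a3. Nr4a2 had a log2 fold change of 0.89 (SE 0.41).

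The lowest log2 fold changes on this list were those of Myc (-0.65, SE 0.66), Gadd45a (-0.65, SE 0.36) and Egr3 (-0.52, SE 0.58). Myc was at 16.4, 12.6 and 67.7 CPM in WT and 15.2, 20.4 and 25.9 CPM in FOXO3 KO, thus highest in WT 3, in contrast to Jun and Atf3. Of the 36 genes, 20 were lowest in WT 3, and 8 were there below 50% of the mean of WT 1 and WT 2. Rhob, a small GTPase of the actin cytoskeleton, for example, was at 285, 299 and 86.1 CPM in WT and at 318, 275 and 229 CPM in FOXO3 KO, and the kinase gene Plk2 at 243, 238 and 66.8 CPM and at 270.4, 294 and 188 CPM. Egr2, a relative of Egr1, was at 81.8, 60.2 and 17.98 CPM in WT and at 64.8, 63.2 and 45.7 CPM in FOXO3 KO. Unlike Egr1, it was therefore low in WT 3 as Fos, Jun and Atf3 were.

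Among other AP-1 and bZIP partners, 14 of 15 genes were tested and 0 were called. A log2 fold change above 0 was fitted for 11, beside 48.8% of all genes, with a median of 0.22. Without FOXO3 KO 2 the median was 0.35 over 15 genes. That median includes Fosl1, which was tested only there, and is not compared with 0.22. With Fosl1 set aside, the middle values there were those of Mafg (0.35) and Batf (0.21). Mafg alone was at an unadjusted p under 0.05 by edgeR with 6 libraries, beside 5.68% of all genes. No gene of this list was without FOXO3 KO 2, beside 4.30%, and Mafg was there at an unadjusted p of 0.0831. With 6 libraries the largest changes were those of Batf2 (0.66, SE 0.29), Maf (0.55, SE 0.38) and Jdp2 (0.51, SE 0.30). Batf2 was highest in FOXO3 KO 2 and had a log2 fold change of 0.46 (SE 0.32) without it. Maf (0.60) and Fosl2 (0.59) were then the largest among the 14 genes tested in both fits. Fosl1 (1.13, SE 0.51) passed the filter only without FOXO3 KO 2, and is counted in the median over 15 genes. It was near the floor, at 0.277, 0.247 and 0.168 CPM in WT and 0.319 and 0.690 CPM in FOXO3 KO 1 and 3. It thus entered through the group in which it was higher, and its change is not read further. The lowest change with 6 libraries was that of Jund (-0.14, SE 0.11). Jund, the Jun member that is expressed without a stimulus, was at 143, 128 and 145 CPM in WT and at 134, 127 and 115 CPM in FOXO3 KO, so that it was not low in WT 3. Maf, by contrast, was at 267, 242 and 93.1 CPM in WT and at 306, 273 and 302 CPM in FOXO3 KO.

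Genes that act upstream of the early response were also measured. Of 17 kinases of the ERK, JNK and p38 cascades 0 were called, 9 were above 0 and 8 below, with a median log2 fold change of 0.01 (0.05 without FOXO3 KO 2). At an unadjusted p under 0.05 by edgeR, 1 of the 17 kinases was reached, beside 5.68% of all genes, and without FOXO3 KO 2 again 1, beside 4.30%. This was Map2k7, which activates JNK, at 68.5, 69.6 and 75.8 CPM in WT and at 53.8, 61.6 and 57.4 CPM in FOXO3 KO. Its log2 fold change was -0.31 (SE 0.10, unadjusted p = 0.018, adjusted p = 0.763 by edgeR), and -0.36 (SE 0.12, unadjusted p = 0.0258) without FOXO3 KO 2. Rps6ka5 had a larger change, at -0.63 (SE 0.35, unadjusted p = 0.119 by edgeR). It was at 14.7, 13.1 and 30.7 CPM in WT and at 10.7, 13.6 and 13.6 CPM in FOXO3 KO. Of 12 SRF, ETS and CREB factors 0 were called and 7 were above 0, with a median of 0.10 (0.08 without FOXO3 KO 2). Srf itself was at 45.0, 47.5 and 35.3 CPM in WT and 49.6, 44.8 and 48.4 CPM in FOXO3 KO, and its log2 fold change was 0.16 (SE 0.13). The highest log2 fold change of these factors was that of Crem (0.35, SE 0.22) and the lowest that of Elk4 (-0.37, SE 0.32).

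The cytokine and chemokine mRNAs known as TTP targets were measured beside Zfp36. Of 17 listed, 13 were tested and 0 were called by edgeR's quasi-likelihood test. A log2 fold change above 0 was fitted for all 13, beside 48.8% of all genes. At an unadjusted p under 0.05 there were 5 (Il1b, Ccl2, Ccl7, Tnf and Ptgs2), beside 5.68% of all genes. Their median log2 fold change was 0.79 (0.68 over 15 genes without FOXO3 KO 2, with 13 above 0 and 2 below), while that of Zfp36 was 0.16. Il6 and Il10 were near the floor, and are counted in the 13 and in both medians. With 6 libraries their passing of the filter leaned on the FOXO3 KO group, in which their means were higher. Il6 was at 0.176 to 0.727 CPM in WT and 0.438 to 0.720 CPM in FOXO3 KO. Il10 was at 0.212 to 0.447 CPM and 0.401 to 0.567 CPM, and the signs of both are not read further. Ccl2, which encodes a monocyte chemoattractant, was at 6.09, 9.49 and 4.75 CPM in WT and at 25.9, 15.03 and 19.3 CPM in FOXO3 KO. Every FOXO3 KO library lay above every WT library, with a log2 fold change of 1.57 (SE 0.32, adjusted p = 0.714 by edgeR), which was 1.74 (SE 0.34, adjusted p = 0.770) without FOXO3 KO 2. Il1b, the gene of the cytokine IL-1 beta, was at 4.54, 7.34 and 3.58 CPM in WT and at 29.1, 8.76 and 26.7 CPM in FOXO3 KO. FOXO3 KO 2, with Foxo3 at the WT level, was the FOXO3 KO library nearest to WT for both genes. Among the genes at an unadjusted p under 0.05 by edgeR, the same held for Ccl7 and Ptgs2. For Tnf, however, FOXO3 KO 2 was the highest of the 6 libraries, at 8.36 CPM, as it was for Il1a, Vegfa, Cxcl1 and Cxcl2. The neutrophil genes S100a8, at 7.89, 11.3 and 2.40 CPM in WT and 83.2, 12.9 and 59.8 CPM in FOXO3 KO, and Cxcr2, at 0.886, 0.882 and 0.587 CPM and 18.7, 2.23 and 14.4 CPM, were high in the same FOXO3 KO libraries as Il1b. S100a9, Csf3r and Ltf were also highest in FOXO3 KO 1 and 3. Other neutrophil markers did not follow. Retnlg was at 17.5, 21.2 and 3.47 CPM in WT and 21.7, 17.0 and 18.4 CPM in FOXO3 KO. Mmp9 was at 40.7, 29.9 and 11.2 CPM and 36.1, 37.5 and 39.0 CPM. The part of neutrophils in the levels of TTP targets was not tested. DESeq2 called Ccl2 and Il1b alone of this list, with adjusted p-values of 0.00422 and 0.0162 over 6 libraries, beside 0.794% of all genes. Without FOXO3 KO 2 it called the same genes, with adjusted p-values by DESeq2 of 0.00502 and 6.05e-07, beside 0.666% of all genes.

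Summed over the 17 listed mRNAs, the level was 178, 179 and 63.1 CPM in WT and 291, 279 and 201 CPM in FOXO3 KO, and WT 3 was lowest here too. Every FOXO3 KO sum lay above every WT sum, an order that 7.00% of single genes tested had. The sum leans on Vegfa, which was at 85.3, 65.7 and 15.9 CPM in WT and at 106, 132 and 70.1 CPM in FOXO3 KO, and which overlapped between the groups. Vegfa, at 15.9 CPM in WT 3 and 65.7 to 132 CPM elsewhere, shared that drop, whereas Cxcl1 and Cxcl2 were not lower in WT 3 than in the lowest of the other libraries. Heat shock genes that respond to cell handling were called in 0 of 11 cases, with 10 above 0, beside 48.8% of all genes. Their median log2 fold change was 0.12 (0.18 without FOXO3 KO 2). Hspb1 alone was at an unadjusted p under 0.05 by edgeR (0.0190), beside 5.68% of all genes. Its log2 fold change, the largest here, was 1.38 (SE 0.44), and 0.91 (SE 0.38, unadjusted p = 0.0599) without FOXO3 KO 2, its highest library. Hspa1a, an inducible Hsp70 gene, was at 19.3, 11.9 and 7.185 CPM in WT and at 24.0, 20.3 and 8.75 CPM in FOXO3 KO, and thus low in both libraries with Xist. Hspa1b did not share this in WT 3, as it was at 9.28, 6.53 and 8.19 CPM in WT and at 14.0, 8.94 and 6.81 CPM in FOXO3 KO. The constitutive Hspa8 was at 1039 CPM in WT 3 and at 1177 to 1398 CPM in the other libraries.

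**Figure D4:**
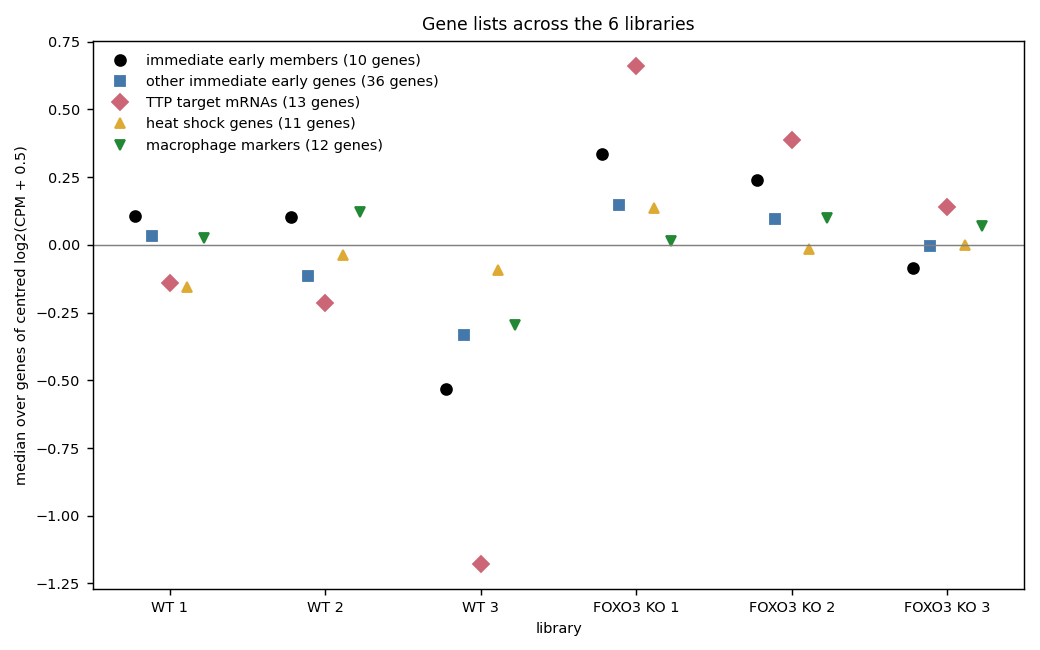
Median over the tested genes of each list of log2(CPM + 0.5) minus the gene's mean over 6 libraries (y axis), by library (x axis). The 10 immediate early genes have their lowest median, -0.53, in WT 3, where TTP target mRNAs are at -1.18 and heat shock genes at -0.09.

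The genes whose profile over the 6 libraries lay nearest to the mean of the 10 immediate early genes were sought among genes outside the lists with a mean of at least 5 CPM. That mean profile, in log2 units around each gene's own average, was 0.20, -0.03 and -0.60 in WT 1, 2 and 3 and 0.39, 0.23 and -0.18 in FOXO3 KO 1, 2 and 3. The 6 nearest were Ppp2r3a, at a root mean square distance of 0.047, Mpv17l (0.068), Ap5s1 (0.068), Gm5537 (0.086), Aldoa (0.098) and Wdr60 (0.100). Among the 10 genes themselves, Junb (0.157) and Dusp1 (0.214) lay nearest to the mean profile and Fosb (0.450) and Atf3 (0.419) farthest. Aldoa, the glycolytic aldolase, was at 668, 685 and 378 CPM in WT and at 771, 726 and 567 CPM in FOXO3 KO macrophages.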

How the data were processed

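Peritoneal macrophages in 3 WT and 3 FOXO3 KO samples had been profiled by RNA-seq, and the analysis started from the estimated counts per gene symbol that the authors deposited, without normalization, in 1 table. The submitters' processing notes name STAR 2.6.1d, kallisto 0.46.0, DESeq2 and the build mm10 without their roles. A whole number was met within 0.01 by 81.4% of the values, and all values were rounded before testing. Library totals of 28083393 to 36424117 counts set the precision of low genes.

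Groups were taken from the labels and compared with edgeR 4.0.16 in R 4.3.3 (filterByExpr, TMM, quasi-likelihood test, Benjamini-Hochberg over all genes tested), and genes were called at an FDR under 0.05 and a fold change over 1.5. Intervals came from the standard error and the degrees of freedom of the fit. The scripts were tested on simulated data. Single values were compared by exact permutation on log2(CPM + 0.5). The labels do not say whether samples of a group came from separate mice or preparations, so p-values measure only the spread between these samples, which may be technical. No columns of other samples were present.

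Named were the 10 members, Foxo3, Xist, the Y-linked gene Ddx3y, the 6 nearest profiles, and cell type markers. Of the 3 highest and 3 lowest log2 fold changes of each list, only some are named in the text. Rhob, Plk2, Egr2, Trib1, Cebpd, Nr4a1, Dusp5, Mafg, Fosl1, Fosl2, Tnf, Ptgs2, Il1a, Il10, Vegfa and the TGACGT core were chosen after values or sequences were seen. The lists were chosen with earlier results of these data known. The 10 members were fixed and matched by symbol and not by their values, though earlier results of these data were known. Lengths and 3′ UTRs came from GENCODE M21, and a motif match is a description only. Alternatives were DESeq2 1.42.0, limma-voom (limma 3.58.1), edgeR's likelihood ratio test, other scaling and filters, a replicate block, libraries left out and a term for Xist. A marker gene that was withheld is not reported here.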

Additional observations from a re-analysis of the deposited data

Results flagged for a closer look

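For Ier3 and Egr1, FOXO3 KO 3 lay slightly below WT 3 in the set with Xist, which is 1 library against 1, and within the range of all WT libraries. In the set without Xist both FOXO3 KO libraries lay above both WT libraries. The sign of the difference also turned between these sets for Fosb, Atf3 and Dusp1, where the groups without Xist overlapped. Ier3 differed by -0.0374 (log2 CPM, FOXO3 KO minus WT) between FOXO3 KO 3 and WT 3, and by 0.8474 between the means of the 2 FOXO3 KO and 2 WT libraries without Xist, where both FOXO3 KO libraries were above both WT libraries. Egr1 differed by -0.0997 and 0.4897 in the same comparisons. The interaction of genotype and Xist had an adjusted p of 0.222 for Ier3 and 0.457 for Egr1 by edgeR's quasi-likelihood test, so the difference between the comparisons did not pass the threshold for either gene. Without FOXO3 KO 2, whose Foxo3 was at the level of WT, the log2 differences without Xist were 0.67 for Ier3 and 0.38 for Egr1. For Jun and Atf3 the interaction itself passed an FDR under 0.05 without FOXO3 KO 2, at 1.3258 and 1.3582 on the log2 scale (adjusted p-values of 0.0291 and 0.0279 by edgeR), and it did not with 6 libraries (0.0704 and 0.0678). It rests on WT 3 and FOXO3 KO 3 alone for the libraries with Xist.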

How the results depend on the processing

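The 10 immediate early genes gave 0 calls under all 20 alternatives (other tools, scaling, filters, a replicate block, libraries left out and a term for Xist), and the lowest adjusted p of a member was 0.293, for Fos. Under 15 of the 20 no gene of any kind was called, so the absence of member calls there says nothing about the members. Of the 200 log2 fold changes of the 10 genes, 188 kept their sign and 12 did not. Leaving out each library in turn moved Fos between -0.1882 (without WT 3) and 0.511, Atf3 between -0.1737 (without WT 3) and 0.5543, Ier2 between -0.0014 (without WT 3) and 0.1113, and Dusp1 between -0.3398 and 0.1617 (without WT 1). Fos was also below 0 without FOXO3 KO 1 (-0.1461) and Dusp1 above 0 without FOXO3 KO 3 (0.1015). Without WT 3 and FOXO3 KO 2, Fos was at -0.1576, Atf3 at -0.2639, Jun at -0.04 and Ier2 at -0.0022. In the 4 libraries without Xist, a set chosen after seeing the data, Atf3 was at -0.0209, and with a term for Xist and without FOXO3 KO 2 Dusp1 was at 0.0598. Among all genes, 118 were called higher and 6 lower by DESeq2, 102 and 7 by edgeR's likelihood ratio test, 3 and 1 without WT 3 and FOXO3 KO 2, 11 and 6 with the Xist term without FOXO3 KO 2, and 77 and 31 by DESeq2 without FOXO3 KO 2. DESeq2 with 6 libraries, DESeq2 without FOXO3 KO 2 and the likelihood ratio test each called 1 other immediate early gene and 2 TTP targets. Without FOXO3 KO 2, the interaction of genotype and Xist passed for 2 members, against 0 with 6 libraries. The cause of these differences was not tested. Deviations of same-numbered libraries correlated at 0.34, -0.06 and 0.57, so the numbers were not taken to pair the samples. With a replicate block the members' median was 0.29 and 0 genes were called, and FOXO3 KO 1 correlated best with WT 2 (0.61). With 3 libraries a group, the log2 fold changes of Jun (0.38, SE 0.43) and Atf3 (0.22, SE 0.49) were smaller than their standard errors. What size of change could be detected with these libraries, 1 of which carries Foxo3 at the WT level against its label, was not tested.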

Other observations

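Some regulators outside the 10 genes differed from them in where they were high. Socs3, which encodes a feedback inhibitor of cytokine receptors, was at 33.2, 25.7 and 68.4 CPM in WT and at 64.8, 46.7 and 86.6 CPM in FOXO3 KO macrophages, so that WT 3 was high within WT and the groups overlapped (log2 fold change 0.64, SE 0.41, adjusted p = 0.843 by edgeR's quasi-likelihood test). Btg2, an antiproliferative early gene, was at 119, 104 and 210.4 CPM in WT and at 97.2, 107 and 113 CPM in FOXO3 KO, and Nfkbia, the gene of the NF-kappa B inhibitor, was at 71.0, 62.5 and 120.1 CPM and at 78.8, 89.1 and 83.1 CPM. Both were highest in WT 3, the library in which Jun, Atf3 and Fos were lowest. These 3 genes were chosen after their values were seen.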
